A study of Mus musculus with 8 samples.

Results

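Expression of 8 genes of nerve signalling was compared between mouse tendon stem cells (TSCs) cultured in HFHG medium and in LG medium. They were Tac1, which encodes the precursor of substance P, and Tacr1, the substance P receptor; the alpha adrenergic receptors Adra1d, Adra1b, Adra1a and Adra2a; Ngfr, the receptor that the neurotrophins share; and Bdnf, brain derived neurotrophic factor. The 8 genes are the rows with these symbols among the 19301 genes of the expression table, and they were selected on their FPKM in these same libraries and on the HFHG to LG comparison of it, so their values are given as a description without a test. The cells were primary TSCs released by collagenase from patellar tendons of C57BL/6J mice and grown on plastic, and the age and sex of the donor animals and any pooling of them are not stated for these cultures. LG was low glucose medium with the solvent DMSO, and HFHG (high fat, high glucose) was high glucose medium with palmitic acid, a saturated fatty acid, so glucose and fatty acid were changed together. RNA was taken after 4 days of culture, with 4 biological replicates in each group and 8 libraries in all. A difference in such bulk RNA can come from fewer cells of a type or from less RNA per cell, and these cannot be told apart here.

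Substance P is a short peptide of the tachykinin family that sensory nerve endings release and that tendon cells are also known to make, and it acts mainly through Tacr1, a receptor coupled to Gq. Noradrenaline from sympathetic nerves acts on the adrenergic receptors, of which the alpha 1 subtypes couple to Gq and calcium, the alpha 2 subtypes to Gi and a fall of cyclic AMP, and the beta subtypes to Gs and a rise of cyclic AMP. Bdnf belongs to the neurotrophins, which bind a Trk receptor kinase each and share Ngfr. Nerve ingrowth into healing and overused tendon is known to carry substance P and noradrenaline.

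The Tac1 precursor is cut into more than one active peptide, and the stretches coding for substance P and for neurokinin A are shown because a gene level value does not separate them. Both are in the GRCm38 build on the plus strand of chromosome 6, with GENCODE M21 exons. The substance P stretch at chr6:7556732-7556764 lies within 1 exon and was found in 4 of the 4 coding Tac1 transcripts, and the neurokinin A stretch at chr6:7559101-7559130 was found in 2 of the 4. The capitals mark the codons of the last 5 residues, the carboxyl end by which tachykinins bind their receptors.
substance P: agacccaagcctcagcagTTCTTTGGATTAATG
neurokinin A: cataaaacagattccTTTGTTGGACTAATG

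The promoters of Tac1, the gene with the highest ratio of means among the 8, and of Adra2a, the gene with the lowest, are shown for their bases around the start site. They are RefSeq sequences of the GRCm38.p6 build, from 250 bases before to 50 bases after the start, and run 5′ to 3′ on the strand of the gene. Capitals mark matches to any of 5 motifs searched on both strands, which were the cyclic AMP response element TGACGTCA, the E-box CACGTG, the TATA box TATAAA, the AP-1 site TGANTCA and the GC box GGGCGG. None of these motifs contains another.
Tac1 promoter, chr6:7554811-7555110: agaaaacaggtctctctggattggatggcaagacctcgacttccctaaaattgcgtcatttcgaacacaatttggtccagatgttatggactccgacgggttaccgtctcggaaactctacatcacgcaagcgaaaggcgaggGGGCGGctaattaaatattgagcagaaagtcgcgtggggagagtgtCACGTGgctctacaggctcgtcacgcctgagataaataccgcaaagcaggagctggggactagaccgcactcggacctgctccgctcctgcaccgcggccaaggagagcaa
Adra2a promoter, chr19:54045009-54045308: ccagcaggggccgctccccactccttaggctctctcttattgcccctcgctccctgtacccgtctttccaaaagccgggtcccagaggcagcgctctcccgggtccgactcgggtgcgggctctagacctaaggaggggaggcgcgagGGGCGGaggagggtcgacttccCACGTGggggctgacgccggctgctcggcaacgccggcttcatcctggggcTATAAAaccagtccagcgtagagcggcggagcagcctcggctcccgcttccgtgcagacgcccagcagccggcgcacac
Both promoters held CACGTG, at -61 in Tac1 and at -80 in Adra2a, counting from the start site, and this word was present in 7.15% of all 32851 promoters of the same length. Both also held GGGCGG, at -107 and -102, a word present in 35.7% of promoters. The Adra2a promoter held TATAAA at -29, a word in 13.6% of promoters, and its GC content was 68.7%, against 54% in Tac1 and a median of 52.7% over all promoters. Neither held TGACGTCA, which 1.79% of promoters held, or TGANTCA, which 7.81% held. Such matches describe the letters and not binding. Of the 8 genes, 6 had promoter entries, 13 in all, and Adra1d and Adra1a had none.

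The libraries held 34308108 to 37362725 reads each, as recovered from the FPKM values (reads scaled for gene length and library size). Between pairs of replicates, the reads of a gene varied 3.41 to 4.6 times as much as sampling alone would give, except in the 3 pairs with LG replicate 4, where they varied 7.56 to 10.8 times. LG replicate 4 therefore stood apart, and the fold changes of Tac1, Adra1d and Adra2a are also given without it. The 8 listed tendon cell genes were measured in all libraries, led by Dcn, Col1a1, Thbs4 and Tnc. Their summed level was 1860 to 1910 FPKM in HFHG and 1170 to 1200 in LG. Scx (2.27 FPKM in HFHG and 1.45 in LG) and Tnmd (1.1 and 0.614) were low. By limma 6 of the 8 rose, Mkx fell (6.73 against 8.62 FPKM) and Dcn did not pass (605 against 609). Scx and Tnmd were among the 6, with Tnmd at 0.22 to 0.916 FPKM in LG, around the filter level given below. The study reported the opposite for both by qPCR, with lower Scx and Tnmd in HFHG medium and no significant change of Mkx. Over all tested genes 34.0% rose and 30.8% fell. Immune cell genes were also high in both groups, and they are given beside the adrenergic receptors. A gene was tested where it reached 0.5 FPKM in at least 4 libraries, which held for 11710 genes and for 5 of the 8 (Tac1, Adra1d, Adra2a, Ngfr and Bdnf). Fold changes are differences of the mean log2(FPKM + 0.1), HFHG minus LG, which understate the change of genes with low FPKM.

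Tac1 (NCBI gene 21333, chromosome 6, 7554879 to 7565834) was low in both groups and higher in HFHG. In HFHG its level was 0.525, 1.13, 1.19 and 1.05 FPKM in replicates 1 to 4, from 26, 53, 57 and 51 reads. In LG it was 0.044, 0.145, 0 and 0.509 FPKM, from 2, 7, 0 and 24 reads. The groups did not overlap, but the lowest HFHG library and the highest LG library, LG replicate 4, were 2 reads apart, and the other 3 LG libraries were far lower. A count of 0 in LG replicate 3 allows a level of up to 0.0638 FPKM (3 reads), counting error alone. The means were 0.975 ± 0.306 FPKM in HFHG and 0.174 ± 0.231 in LG (SD, n = 4), a ratio of 5.59. The log2 fold change was 2.26 (SE 0.454), and 2.76 without LG replicate 4. At these counts it depended on the pseudocount, with 0.75 at a pseudocount of 1, 3.53 at 0.01, and 3.49 when the recovered reads were fitted with voom. Tac1 passed the filter on low values through its HFHG libraries, so that it is listed among the tested genes is itself a mark of its higher level there. Its level and its passing also rest on a recovered gene length of 1326 bases, against joined GENCODE exons of 3399 bases. With the joined exons as length (an alternative chosen after seeing the data), Tac1 was 0.205 to 0.466 FPKM in HFHG and 0 to 0.198 in LG. All of these values are under the filter level of 0.5 FPKM.

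Tacr1 (chromosome 6, 82402334 to 82560104), the receptor of substance P, had few reads in both groups and mostly lower values in HFHG. Its level was 0.131, 0.107, 0.0839 and 0.0723 FPKM in HFHG, from 26, 20, 16 and 14 reads. In LG it was 0.171, 0.161, 0.117 and 0.159 FPKM, from 31, 31, 22 and 30 reads. The HFHG libraries lay mostly below the LG ones, and the groups overlapped at HFHG replicate 1 and LG replicate 3. The means were 0.0986 ± 0.0261 FPKM in HFHG and 0.152 ± 0.0237 in LG (SD, n = 4), a difference of -0.35 on the log2 scale from 76 and 114 reads. Tacr1 did not reach the filter.

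**Figure D1:**
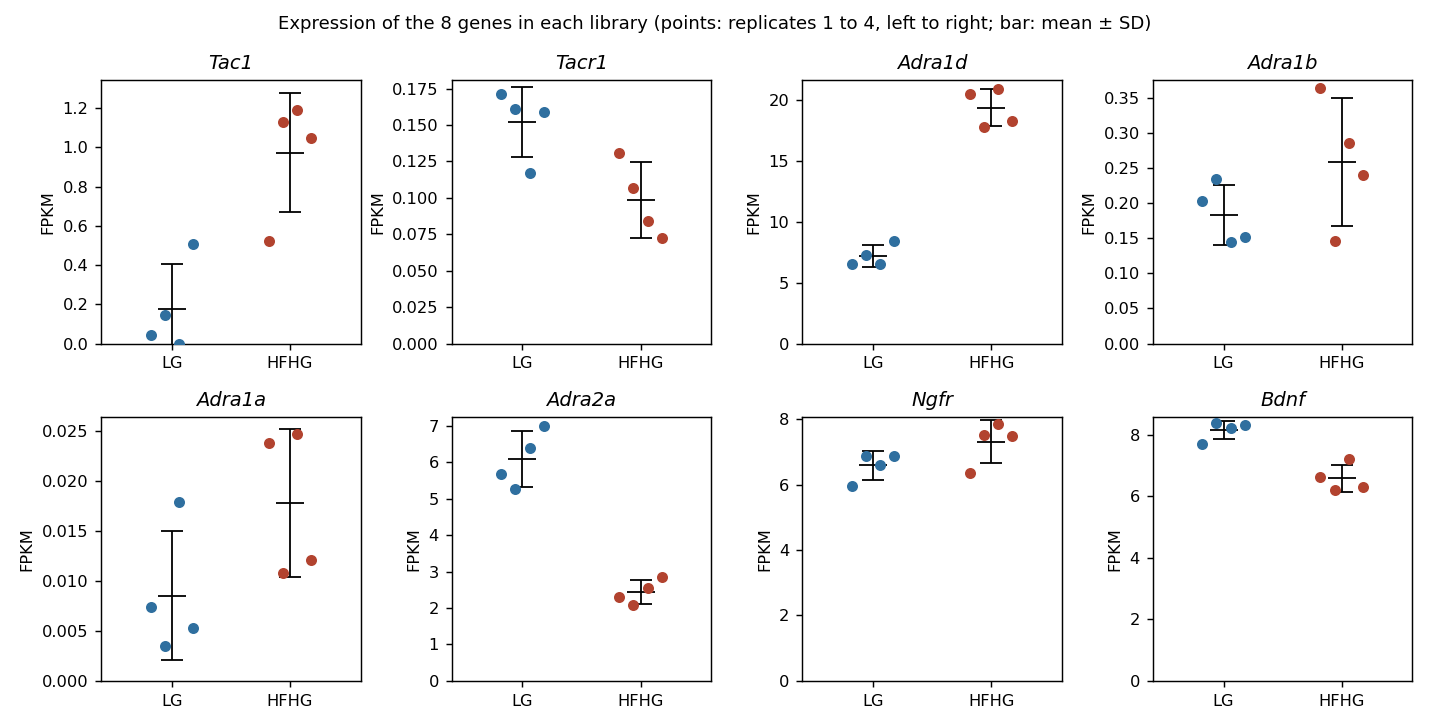
Expression of the 8 genes in FPKM (vertical axes, each starting at 0 with its own scale) in LG and HFHG libraries, with replicates 1 to 4 as points from left to right and the mean ± SD as a bar, whose lower end is cut at 0 for Tac1 in LG. Tac1 and Adra1d were higher in all 4 HFHG libraries than in any LG library, Adra2a and Bdnf were lower, and the other 4 genes overlapped.

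The rest of the tachykinin system was sparse on the ligand and receptor side and was measured mainly through peptidases. Tac2, the precursor of neurokinin B, had 1 read in each group, and Tac4, the hemokinin gene, had 7 in HFHG and 2 in LG. Tacr2, the neurokinin A receptor, had 12 reads in each group. Tacr3, the neurokinin B receptor, had 53 reads in HFHG and 10 in LG, with a p of 0.114 in an exact two-sided permutation test (unadjusted). None of these 4 genes was detectably different at this depth in that test, which cannot give a p below 0.0286 with 70 arrangements of 4 against 4 libraries. Of the 4 tested genes of the list, all of them peptidases known to cleave tachykinins, 1 rose (34.0% of all tested genes rose at an adjusted p below 0.05), 1 fell (30.8% of all fell) and 2 did not pass. Mme, or neprilysin, the main substance P degrading enzyme at the cell surface, was 1.53 ± 0.117 FPKM in HFHG and 1.47 ± 0.108 in LG (SD, n = 4; log2 fold change 0.06, adjusted p = 0.583 by limma). Ece1, endothelin converting enzyme, which cleaves substance P inside endosomes, rose by 0.07 on the log2 scale (54.1 against 51.4 FPKM, adjusted p = 0.0362), a call that was lost in 7 of the 17 alternatives, with adjusted p up to 0.104. The member that fell was Ace, angiotensin converting enzyme, at 0.537 against 0.84 FPKM (log2 fold change -0.56, adjusted p = 0.00344), which is under the level set for naming genes and is named because it is the only one.

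Of the adrenergic receptors, Adra1d was higher and Adra2a lower in HFHG. The other alpha 1 subtypes were below the filter, and of them Adra1a was near the limit of detection. Adra1d (NCBI gene 11550, chromosome 2, 131545850 to 131562283, minus strand) encodes the alpha 1D subtype, known for contraction of large arteries. Its level was 20.5, 17.8, 20.9 and 18.3 FPKM in HFHG and 6.51, 7.26, 6.5 and 8.42 FPKM in LG, from 1641 to 1994 and from 582 to 781 reads. Every HFHG library was more than 2 times above every LG library, and LG replicate 4 was the highest of its group. The means were 19.4 ± 1.55 FPKM in HFHG and 7.17 ± 0.906 in LG (SD, n = 4), a log2 fold change of 1.43 (SE 0.0814), and 1.51 without LG replicate 4. Adra1d was past 2-fold higher, as were 3.68% of all tested genes. An antisense transcript, Gm14285, overlaps Adra1d on the opposite strand in GENCODE, and whether the counting used strand is not stated.

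Adra2a (NCBI gene 11551, chromosome 19, 54044151 to 54048982, plus strand) encodes the alpha 2A subtype, the main inhibitory receptor on sympathetic nerve endings, which other cells carry as well. Its level was 2.29, 2.07, 2.54 and 2.85 FPKM in HFHG, from 273 to 388 reads, and 5.68, 5.25, 6.38 and 6.99 FPKM in LG, from 710 to 927 reads. The groups were clearly apart, and replicate 4 was the highest in each of them. The means were 2.44 ± 0.336 FPKM in HFHG and 6.08 ± 0.768 in LG (SD, n = 4), a log2 fold change of -1.28 (SE 0.106), so that LG was 2.49 times HFHG. Adra2a was past 2-fold lower, as were 1.65% of all tested genes. Over the alternatives the log2 fold change ran from -1.37 to -1.04, and it was -1.21 without LG replicate 4.

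Adra1b (chromosome 11, 43774606 to 43901210, minus strand), the alpha 1B subtype, was 0.365, 0.146, 0.286 and 0.24 FPKM in HFHG and 0.203, 0.234, 0.145 and 0.152 FPKM in LG, from 147 and 101 reads in all. HFHG replicate 1 was the highest library and HFHG replicate 2 was at the level of the lowest LG ones, so the groups overlapped, and the difference of 0.32 on the log2 scale was about the size of the spread between replicates (0.313). Adra1a (chromosome 14, 66635251 to 66771168, plus strand), the alpha 1A subtype, had 14, 6, 14 and 7 reads in HFHG and 4, 2, 10 and 3 in LG, which is 0.0178 ± 0.0074 and 0.00853 ± 0.00644 FPKM (SD, n = 4). Its groups overlapped at LG replicate 3. Neither gene reached the filter. The Adra1a level rests on a recovered gene length of 15766 bases, longer than the 8728 bases of its joined GENCODE exons, so its level per length depends on the annotation used.

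Because each library scales all of its genes together, 8 adrenergic receptor genes (the 4 described with Adra2b, Adra2c, Adrb1 and Adrb3) were also set against each other within a library. Their summed level was 20.1 to 24 FPKM in HFHG and 12.5 to 15.7 in LG. Adra1d made up 84.6% to 88.3% of this sum in HFHG and 49.6% to 56.3% in LG. Adra2a made up 9.82% to 13.2% in HFHG and 40.7% to 48.7% in LG. The ratio of Adra1d to Adra2a, a quantity that no scaling of a whole library changes, was 8.96, 8.59, 8.23 and 6.43 in HFHG and 1.15, 1.38, 1.02 and 1.2 in LG. The ratio was thus higher in all 4 HFHG libraries. Its size depends on the gene lengths, which were recovered as 2606 bases for Adra1d and 3724 for Adra2a, against joined GENCODE exons of 1899 and 4832 bases. With the joined exons as length (an alternative chosen after seeing the data), the ratio was 1.81 to 2.46 in LG and 11.5 to 16 in HFHG. The shares depend on the lengths in the same way. These shares and ratios use the same values that chose the genes and are a description.

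**Figure D2:**
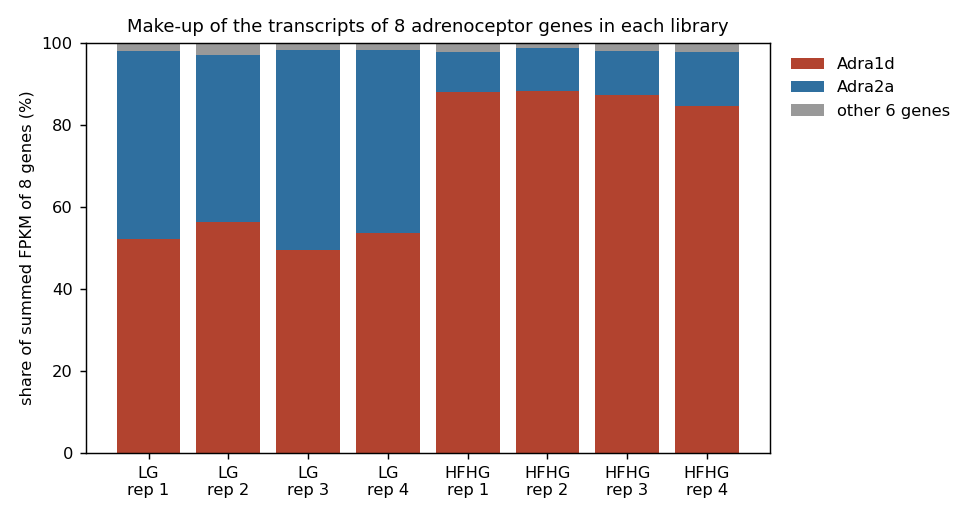
Share of the summed FPKM of 8 adrenergic receptor genes (vertical axis, percent) in each LG and HFHG library, with Adra1d and Adra2a as separate bar segments and the other 6 genes together. Adra1d took 49.6% to 56.3% in LG and 84.6% to 88.3% in HFHG, and Adra2a 40.7% to 48.7% and 9.82% to 13.2%.

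The other adrenergic receptor genes described had few reads. Adra2b had 15 reads in HFHG and 5 in LG (exact permutation p = 0.0571), Adra2c 10 and 4 (exact permutation p = 0.457), Adrb1 5 and 8 (exact permutation p = 0.514) and Adrb3 46 and 23 (exact permutation p = 0.143), none of them a detectable difference at this depth. The genes that make noradrenaline were at or near 0, with 1 read for Th in each group and 5 and 0 reads for Dbh. Among the 4 tested genes of the adrenoceptor and catecholamine list, 2 rose, 1 fell and 1 did not pass, beside the 34.0% and 30.8% of all tested genes that rose and fell, and 4 genes are too few to read a direction from. Maoa, monoamine oxidase A, which breaks down noradrenaline, fell from 29.5 ± 1.51 to 22.3 ± 0.177 FPKM (log2 fold change -0.40, adjusted p = 1.2e-06). Slc6a2, the noradrenaline transporter that clears it from outside the cell, missed the filter with 510 reads in HFHG and 105 in LG, and its level of 0.48 to 0.606 FPKM in HFHG and 0.0563 to 0.19 in LG did not overlap. Among all 7591 genes below the filter with any read, 6.94% were higher in every HFHG library than in any LG library and 2.27% were lower in every one.

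The receptors above signal through G proteins, and 31 of 38 genes of the coupling list were tested, of which 17 rose, 5 fell and 9 did not pass (over all tested genes, 34.0% rose and 30.8% fell). The median log2 fold change of the tested members was 0.19, against 0.02 over all tested genes. All 4 members past 2-fold were higher in HFHG (3.68% of all tested genes were past 2-fold higher and 1.65% lower). The list was chosen with earlier results of these data known, so these counts are a description. Adcy5, 1 of the 4, passed the filter only through its HFHG libraries, as given below, so it could only be found higher. Adcy4, 1 of the 5 that fell, was 0.375 to 0.497 FPKM in HFHG and passed only through its LG libraries. Rgs4, a regulator that shortens Gq and Gi signals, rose from 4.1 ± 0.166 to 21 ± 0.116 FPKM (log2 fold change 2.33, adjusted p = 3.48e-13). Rgs3, of the same family, rose by 1.17 on the log2 scale (adjusted p = 1.61e-09), while Rgs16 fell by 0.33 (46.9 against 59 FPKM, adjusted p = 2.32e-07). Gnai1, an alpha subunit of Gi, rose from 2.66 ± 0.383 to 7.98 ± 0.334 FPKM (log2 fold change 1.56, adjusted p = 1.18e-08). Adcy5, an adenylyl cyclase that Gi inhibits, rose from 0.414 ± 0.0606 to 1.66 ± 0.0868 FPKM (log2 fold change 1.78, adjusted p = 3.73e-08). All LG values of Adcy5 (0.359 to 0.494 FPKM) were under the filter level of 0.5 FPKM. Adcy5 thus passed the filter through its HFHG libraries, and being tested is itself a mark of its higher level there. Of the Gq subunits, Gna11 rose by 0.26 (adjusted p = 3.36e-06) and Gnaq did not pass (0.08, adjusted p = 0.144). Of the phospholipases that Gq drives, Plcb3 was 16.8 FPKM in both groups (adjusted p = 0.942) and Plcb4 1.44 against 1.49 FPKM (adjusted p = 0.763).

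**Figure D3:**
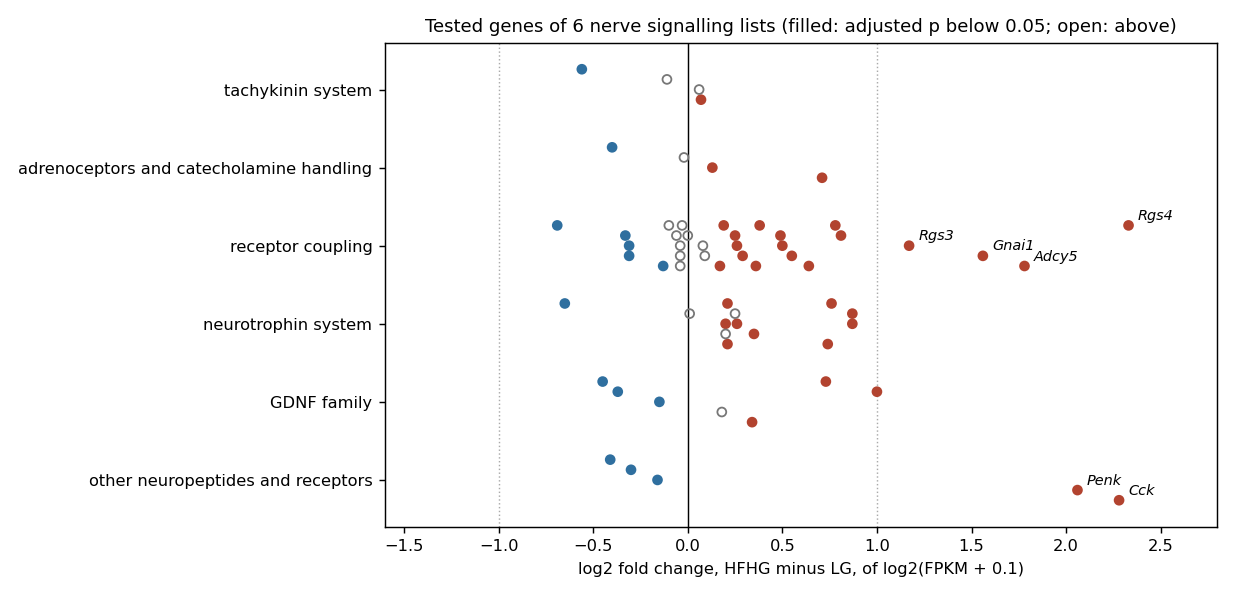
Log2 fold change (horizontal axis, HFHG minus LG, of log2(FPKM + 0.1)) of the 64 tested genes in 6 lists of nerve signalling genes other than the 8 described, with filled points for an adjusted p below 0.05 and open points above it; dotted lines mark 2-fold. Of the 64 genes, 34 rose, 14 fell and 16 did not pass, and the 6 genes past 2-fold (named) were all higher in HFHG; over all tested genes 34.0% rose and 30.8% fell, with 3.68% past 2-fold higher and 1.65% lower.

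Ngfr and Bdnf had the smallest log2 fold changes of the 5 genes above the filter. Ngfr (NCBI gene 18053, chromosome 11, 95568818 to 95587735, minus strand) was 6.36, 7.53, 7.86 and 7.49 FPKM in HFHG, from 810 to 964 reads, and 5.97, 6.88, 6.61 and 6.89 FPKM in LG, from 698 to 851 reads. HFHG replicate 1 lay below 3 of the LG libraries, and the groups overlapped. The means were 7.31 ± 0.653 and 6.58 ± 0.431 FPKM (SD, n = 4), a log2 fold change of 0.15 (SE 0.0715).

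Bdnf (NCBI gene 12064, chromosome 2, 109674700 to 109727007, plus strand) was 6.61, 6.21, 7.2 and 6.29 FPKM in HFHG, from 1410 to 1664 reads, and 7.71, 8.38, 8.22 and 8.3 FPKM in LG, from 1698 to 1954 reads. All HFHG libraries lay below all LG libraries, by a small distance. The means were 6.58 ± 0.451 and 8.15 ± 0.303 FPKM (SD, n = 4), a log2 fold change of -0.31 (SE 0.0568), which ran from -0.35 to -0.25 over the alternatives. Values of the groups did not overlap for 4 of the 5 genes above the filter (Tac1, Adra1d, Adra2a and Bdnf), and this was also so for 59.2% of all tested genes. An antisense transcript, Gm45346, overlaps Bdnf in GENCODE. Bdnf is transcribed from several promoters, 7 of which had entries, and the gene level values do not separate them.

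**Figure D4:**
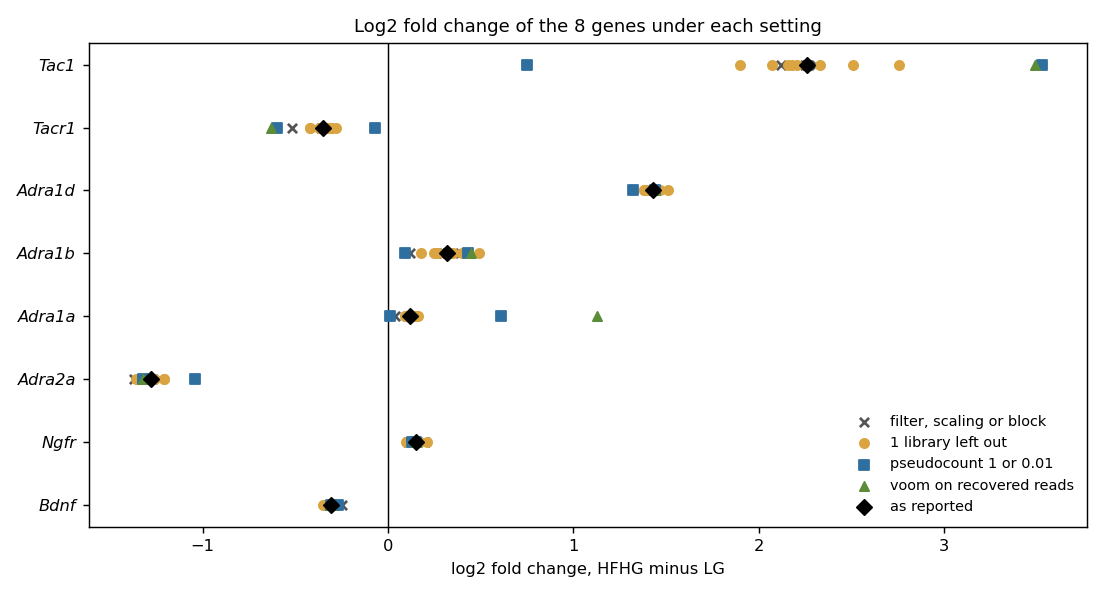
Log2 fold change (horizontal axis, HFHG minus LG) of the 8 genes as reported (diamonds) and under each alternative setting, including each library left out. Adra1d (1.32 to 1.51), Adra2a (-1.37 to -1.04), Ngfr (0.10 to 0.21) and Bdnf (-0.35 to -0.25) stayed in a narrow range, while Tac1 ran from 0.75 to 3.53.

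The neurotrophin ligand genes Ntf5 and Ntf3 were low. Ntf5, neurotrophin 4/5, did not pass (0.651 against 0.529 FPKM, adjusted p = 0.204), and Ntf3 had 8 reads in HFHG and 1 in LG.

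The Trk genes Ntrk2 and Ntrk3, whose kinases drive growth and survival, were below the filter. Ntrk2, the Bdnf receptor kinase, had 356 and 191 reads, a level of 0.0621 to 0.0964 FPKM in HFHG and 0.0362 to 0.056 in LG, without overlap (exact permutation p = 0.0286, the smallest possible). Ntrk3 had 20 and 21 reads (exact permutation p = 0.6). Ngfr was far above both of these genes in either group. Of 13 tested genes of the neurotrophin list, 9 rose, 1 fell and 3 did not pass (34.0% and 30.8% of all tested genes rose and fell). Sorcs2, 1 of the 9, was 0.245 to 0.358 FPKM in LG and passed the filter only through its HFHG libraries. Sort1, or sortilin, the partner of Ngfr in binding uncleaved neurotrophins, rose from 2.12 ± 0.179 to 3.94 ± 0.0663 FPKM (log2 fold change 0.87, adjusted p = 3.88e-07). Rtn4r, the Nogo receptor, which also pairs with Ngfr, rose from 1.6 ± 0.486 to 2.91 ± 0.0367 FPKM (0.87, adjusted p = 0.000317). Pcsk6, a protease that cuts precursor proteins, rose from 1.78 ± 0.167 to 3.06 ± 0.484 FPKM (0.74, adjusted p = 6.32e-05), and Nradd, a death domain protein related to Ngfr, fell from 33.7 ± 2.39 to 21.5 ± 2.43 FPKM (-0.65, adjusted p = 5.06e-06).

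The GDNF family, a neighbouring group of factors that act on neurons, had 7 tested genes, of which 3 rose, 3 fell and 1 did not pass, near the shares of all tested genes (34.0% up, 30.8% down). Ret, its shared receptor kinase, rose from 6.07 ± 0.372 to 7.69 ± 0.387 FPKM (log2 fold change 0.34, adjusted p = 0.000245), and the coreceptor Gfra4 fell from 9.95 ± 1.4 to 7.66 ± 0.753 FPKM (-0.37, adjusted p = 0.00377). Gdnf itself fell by 0.15 on the log2 scale (adjusted p = 0.047), a call lost in 7 of the 17 alternatives, with adjusted p up to 0.246.

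Other neuropeptides reached levels that Tac1 did not. Of 38 genes listed, 5 were tested, and 2 rose and 3 fell, against 34.0% and 30.8% over all tested genes. Cck, cholecystokinin, rose from 92.1 ± 7 to 447 ± 13.5 FPKM (log2 fold change 2.28, adjusted p = 5.24e-13), and Penk, the enkephalin precursor, from 59.4 ± 2.14 to 247 ± 6.58 FPKM (2.06, adjusted p = 8.66e-14). Npy1r, a receptor of neuropeptide Y, fell from 7 ± 0.509 to 5.23 ± 0.266 FPKM (-0.41, adjusted p = 9.14e-05). Calcrl, a subunit of the receptor of calcitonin gene-related peptide, fell from 5.29 ± 0.42 to 4.28 ± 0.467 FPKM (-0.30, adjusted p = 0.00597). Ramp1, its partner in that receptor, was below the filter, with 64 reads in HFHG and 26 in LG. The values thus do not show a change of the whole receptor. The peptide that nerves release along with substance P, encoded by Calca, had 22 reads in HFHG and 1 in LG (exact permutation p = 0.0571).

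In order of mean level, the 8 genes ran in HFHG from Adra1d over Ngfr, Bdnf, Adra2a, Tac1, Adra1b and Tacr1 to Adra1a, and only Ngfr and Bdnf overlapped as neighbours. Adra1d was above 83.7% of all genes there and Tac1 above 44.2%, shares that depend on the gene lengths used. In LG the order was Bdnf, Adra1d, Ngfr, Adra2a, Adra1b, Tac1, Tacr1 and Adra1a. The first 4 in LG overlapped from neighbour to neighbour, within 6.08 to 8.15 FPKM, and so did Adra1b, Tac1 and Tacr1. With the joined GENCODE exons as length the order in HFHG was the same, while in LG Adra1d came before Bdnf and Tacr1 before Tac1.

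Similar patterns were looked for where the average was 1 FPKM or more, and the 3 closest genes were found by the Pearson correlation of log2(FPKM + 0.1) over the 8 libraries among 10671 genes. These libraries share the contrast of the media, so any gene that differs between them correlates with any other. For Adra1d they were Gadd45g (r = 0.999), Ext2 (0.998) and Ddit4l (0.997), and 1229 genes had an r above 0.95. For Adra2a they were Mpv17 (0.995), Fcer1g (0.993) and Camk1 (0.993), with 1038 genes above 0.95. For Bdnf they were Ndfip2 (0.986), Rps27rt (0.986) and Tnf (0.985), with 100 genes above 0.95. For Ngfr they were Acsl3 (0.924), Spon1 (0.922) and Dek (0.894), and no gene was above 0.95.

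Genes that mark other cell types moved with the media as well. The counts below stand beside the 34.0% of all tested genes that rose and the 30.8% that fell at an adjusted p below 0.05. Of 7 tested immune cell genes, 6 fell by limma, and the list's summed level was 1720 to 1770 FPKM in HFHG and 1880 to 1970 in LG, of which the lysozyme gene Lyz2 made up most. The macrophage genes Adgre1 (26.5 against 38 FPKM), Itgam (14.8 against 23.9) and C1qa (18.6 against 36.6) were lower in HFHG, as was Adra2a. The tested pericyte and smooth muscle genes all rose (4 of 4, a sum over the list of 82.7 to 87.9 against 51.7 to 55.8 FPKM), and Adra1d was higher too. The listed genes Rgs5, Kcnj8, Abcc9, Myh11 and Des stayed below 0.5 FPKM in every library. Their means, in this order, were 0.203, 0.0108, 0.0548, 0.317 and 0.246 FPKM in HFHG. In LG they were 0.0981, 0.0462, 0.0253, 0.12 and 0.21 FPKM. Of 9 Schwann cell genes, which bear on Ngfr, 4 were tested and 1 rose, Sox10 at 2.13 against 1.43 FPKM, and the sum was 6.74 to 7.45 in HFHG and 5.4 to 6.14 in LG, with Cdh19 and Gfap below 0.5 everywhere. Of 9 neuronal genes 2 were tested and Stmn2 rose (3.39 against 1.16 FPKM), and the other 7 were below 0.5 FPKM in every library, at a sum over all 9 of 3.91 to 4.92 in HFHG and 1.86 to 2.2 in LG. Of endothelial genes 1 rose and 1 fell, and Pecam1, Cdh5, Kdr, Tie1 and Emcn were below 0.5. No muscle gene reached the filter. The part of these cell types in the values of the 8 genes was not tested.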

How the data were processed

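mRNA of TSCs was sequenced from libraries of a stranded kit. Reads were aligned with HISAT2 2.1.0 to mm10 according to the submitters' processing notes, while the counting program, its strand setting and the annotation are not given in the sources used here. The authors deposited FPKM values for 19301 genes in 8 libraries, 4 HFHG and 4 LG, with annotation columns that were not used. Of the columns of per-sample values, 0 were left out. Groups came from the sample labels. The 8 genes and the gene lists were chosen with earlier results of these data known.

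Whole reads behind the FPKM were recovered for 19301 of 19301 genes, by searching for library totals and gene lengths that give whole numbers in all 8 libraries (largest deviation 1.2e-10). A gene length is the smallest that fits, so a read count could be a multiple. Totals were 34308108 to 37362725 reads. Read limits cover counting error only.

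Genes with at least 0.5 FPKM in at least 4 libraries (11710) were fitted as log2(FPKM + 0.1) with limma 3.58.1 in R 4.3.3 (lmFit, eBayes with trend, Benjamini-Hochberg adjustment over all tested genes). P-values measure the spread between these cultures. Listed genes below the filter were compared by an exact two-sided permutation test on the mean log2(FPKM + 0.1). The fit was tested on simulated data. Named genes were the 8, fixed direct partners, up to 4 genes of each of 6 lists with the highest absolute log2 fold change at an adjusted p below 0.05 and a mean of at least 1 FPKM, and the 3 most similar genes. Slc6a2, Th, Dbh, Ace, Rgs16, Gna11, Gnaq, Plcb3, Plcb4, Adcy4, Sorcs2, Ramp1 and Calca were named after their values were seen. Pnmt of the catecholamine list and the muscle genes Myf5 and Myog were not analysed here. Some listed genes are counted in their lists and not reported here by name. Sequences came from RefSeq (GRCm38.p6) and GENCODE M21. Alternatives were other pseudocounts, filters and scalings, the replicate number as a block, each library left out and, chosen after seeing the data, voom on the recovered reads, 17 settings in all, with the union of GENCODE exons as gene length for levels, also chosen after seeing the data.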

Additional observations from a re-analysis of the deposited data

Results flagged for a closer look

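In 4 of 60 groups of 4 libraries examined among the genes named, 1 library lay far from the other 3, with a gap to its nearest neighbour that took up most of the range of the group, past the critical value of Dixon's test. Chance gives such a gap in about 1 of 20 groups. Pcsk6 was 2.03 FPKM in LG replicate 4 and 1.68 to 1.71 in the other LG libraries. Gfra4 was 12 FPKM in the same library and 9.12 to 9.46 in the others. Penk was 238 FPKM in HFHG replicate 4 and 250 to 251 in the other HFHG libraries. Calcrl was 4.97 FPKM in HFHG replicate 4 and 3.99 to 4.13 in the others. None of the 8 genes had such a library.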

How the results depend on the processing

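The 8 log2 fold changes kept their sign under the alternatives run for them, 17 for Adra1d, Adra2a, Ngfr and Bdnf and 16 for Tac1, Tacr1, Adra1b and Adra1a, which a minimum of 1 FPKM removes. With a pseudocount of 1 in place of 0.1, 197 genes in place of 431 were past 2-fold higher and 106 in place of 193 past 2-fold lower, which follows from how a pseudocount shrinks low genes. Among the 8, Tac1 moved most (0.75 to 3.53), and Tacr1 (-0.63 to -0.07), Adra1b (0.09 to 0.49) and Adra1a (0.01 to 1.13), all below the filter, moved with the pseudocount, with voom or with the library left out. Of the listed nerve signalling genes, 34 rose and 14 fell, and each library left out in turn gave 31 to 33 and 12 to 14. Rescaling to the same sum gave 36 and 11 and quantile normalization 30 and 14. Mme changed sign under quantile normalization, and it passed in none of the settings. Calls for Gdnf and Ece1 were lost in several settings. With the replicate block, 32 listed genes rose and 14 fell, and 3841 genes rose and 3501 fell in all (3983 and 3609 without it). The balance depends on the scaling, with 4682 higher and 3002 lower genes after rescaling to the same sum and 3613 and 4011 after quantile normalization. The numbers give no pairing beyond a name: deviations of libraries with the same number correlated at -0.0736 to -0.00558, and none of the pairs matched best. Among the listed genes named, the replicate block ended the call of Ece1 (adjusted p = 0.0894). The median log2 fold change of all tested genes was 0.017 as deposited, 0.075 with the same sum and -0.021 with quantile normalization. Depth limits Tac1 and the genes below the filter, whose values rest on few reads.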

Other observations

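Of the genes in the 6 lists, 66 lay below the filter on low values, and 10 of them had values without overlap between the groups, all higher in HFHG. Of all genes below the filter with any read, 6.94% were higher in HFHG without overlap. The 10 were Slc6a2, Grk4, Ntrk2, Npy2r, Vip, Vipr1, Vipr2, Adcyap1r1, Gal and Oprk1, chosen after their values were seen, each with the smallest p that an exact permutation test can give here (p = 0.0286), or 0.189 adjusted over the 66 genes. Vip, the precursor of vasoactive intestinal peptide, had 197 reads in HFHG and 17 in LG, a level of 0.481 to 1.08 against 0 to 0.153 FPKM. Its receptors Vipr2 (497 against 61 reads) and Vipr1 (120 against 33) were higher too, as was Adcyap1r1 (392 against 136), the receptor of the related peptide PACAP. Gal, galanin, had 81 reads in HFHG and 24 in LG, and Oprk1, the kappa opioid receptor, 83 and 11.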
